A study of Mus musculus with 9 samples.

Results

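The genes described here encode the enzymes and carriers that take glucose from the blood to pyruvate and lactate, and those of the side branches that leave glycolysis on the way: the pentose phosphate, hexosamine and polyol pathways. The 37 genes were listed by function and found by their exact symbol in the authors' annotated table, where each has 1 probe set among 19786 with a single gene symbol. Of them 36 were tested among 45037 probe sets. The authors' annotation lists 20662 of the 45101 probe sets on the array. Probe sets of these genes outside it were not examined. The probe set that carries the symbol Gapdh is one of 64 control probe sets of the array, and its values are therefore given from a fit that kept the controls.

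Whole hearts of male FVB mice, 15 weeks old, were measured with 3 mice and 1 Affymetrix mouse genome array per mouse in each of 3 genotypes. GlycoHi hearts expressed a phosphatase-deficient phosphofructokinase 2, GlycoLo hearts a kinase-deficient form, and WT hearts were wild type. The labels give the heart as the site of expression and give neither the promoter nor the number of founder lines, and they list no treatment of the animals. Values are log2 signals after the authors' robust multiarray average (RMA), so a difference of 1 is a doubling of signal.

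Phosphofructokinase 2 makes and breaks down fructose 2,6-bisphosphate, which activates phosphofructokinase 1, the committed step of glycolysis. The side branches start from glucose itself (polyols), glucose 6-phosphate (pentose phosphates, NADPH and ribose) and fructose 6-phosphate (UDP-GlcNAc, the donor for O-GlcNAc on proteins), so their substrates stand above or beside this step. An adult heart runs mainly on fatty acids and uses muscle and heart isozymes of the glycolytic enzymes. The comparisons ask whether the mRNAs of these enzymes differ when the control point is set high or low.

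Pfkfb1, which encodes the liver isoform of phosphofructokinase 2, averaged 14.42 in GlycoHi hearts, 14.36 in GlycoLo hearts and 7.89 in WT hearts. It checks the labels of transgenic against WT hearts, not of GlycoHi against GlycoLo hearts, and it was the brightest probe set in every GlycoHi heart. The summed signal of 7 cardiomyocyte markers lay between 16.07 and 16.11 on the log2 scale in all 9 hearts, a sum carried by Actc1, Myl2, Tnni3 and Pln. These averaged from 13.78 (Pln) to 14.32 (Myl2) in WT hearts, where the brightest probe set of WT replicate 1 read 14.45. Whether signal still follows RNA amount there was not tested. Among the dimmer cardiomyocyte markers Myh6, the adult cardiac myosin heavy chain, fell in GlycoHi by 0.70 ± 0.10 against WT and by 0.47 ± 0.10 against GlycoLo (limma adjusted p = 0.00444 and 0.0421). Ryr2 and Tnnt2 stood at -0.63 ± 0.14 and -0.30 ± 0.09 in GlycoHi against WT (limma adjusted p = 0.0508 and 0.126). There 4 of the 7 were lower with no overlap, Actc1 by a difference of only -0.03. Of all probe sets, 18.2% did not overlap in that comparison, in either direction. The sum of 5 erythroid markers, carried by Alas2, spanned 7.57 to 8.04 in GlycoHi hearts and 7.46 to 8.18 in GlycoLo hearts, against 8.27 to 8.41 in WT hearts, while 2 of the 5 (Ank1 and Epb42) had a difference above 0 from WT in both lines. The sum of 6 white adipocyte markers spanned 8.62 to 8.85 in GlycoHi hearts and 8.64 to 9.06 in GlycoLo hearts, against 9.05, 9.08 and 9.91 in WT hearts. Fabp4 was the brightest of them except in WT replicate 3, the heart with the highest sum, where Cfd read 8.56 and Fabp4 8.23. The 6 macrophage markers spanned 11.40 to 11.66 in GlycoHi hearts and 11.38 to 11.50 in GlycoLo hearts, against 11.60 to 11.66 in WT hearts. The 5 smooth muscle markers spanned 9.91 to 10.07 in GlycoHi hearts and 9.92 to 10.54 in GlycoLo hearts, against 10.02 to 10.38 in WT hearts. In whole tissue, fewer cells of a type and less RNA per cell cannot be told apart, and the part of these cells in the results below was not tested.

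The signals of these mRNAs differed little between the genotypes. In GlycoHi against WT, 1 of 36 members tested was called (2.78%), a rise of Pgam1, against a background of 2.08% of all probe sets. A call here means an adjusted p under 0.05 in limma, with Benjamini-Hochberg adjustment over all probe sets. In GlycoLo against WT no member was called, with 0.0844% of all probe sets called, and in GlycoHi against GlycoLo none was called either, with a background of 1.71%. The members' median difference was -0.05 in GlycoHi against WT, 0.02 in GlycoLo against WT and -0.08 between the lines, while the median of all probe sets was 0.00, 0.01 and 0.00. Each moved by over 1.5 times when 1 heart was left out, in the same order to -0.02 (GlycoHi replicate 3 left out), 0.04 (GlycoLo replicate 2 left out) and -0.05 (GlycoHi replicate 2 or GlycoLo replicate 3 left out). Both lines were compared with the same WT hearts, so these comparisons are not independent of each other.

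At an unadjusted p under 0.05 from the same limma fit, 9 of 36 members passed in GlycoLo against WT (4 higher, 5 lower), with 9.48% of all probe sets passing. In GlycoHi against WT 7 passed (3 higher, 4 lower), where the background was 14.5%, and between the lines 7 passed (3 higher in GlycoHi, 4 lower), where it was 12.9%. Counted by hearts that did not overlap between the groups, there were 9 members in GlycoLo against WT (background 13.2%), 7 in GlycoHi against WT (18.2%) and 11 in GlycoHi against GlycoLo (16.8%). As shares of the 36, these were 25% by either rule in GlycoLo against WT, 19.4% by either rule in GlycoHi against WT, and 19.4% and 30.6% between the lines. The background was not matched for signal, and only 5 members lay below the array median. Without dim probe sets, 7.46% of all probe sets were called in GlycoHi against WT, where 2.08% were called with them. The part of signal in the members' shares was not tested.

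The precision of the arrays bounded most members to small differences in signal. Whether signal follows mRNA amount evenly at both ends of the scale was not tested. Gapdh, Eno3 and Aldoa averaged 13.28, 13.14 and 13.02 in WT hearts, where the brightest probe set of WT replicate 1 read 14.45. The 95% interval of the difference lay within 1.5-fold in either direction for 34 of 37 members in GlycoHi against WT (all but Pgam1, Uap1 and Sord). The same held for 35 of 37 in GlycoLo against WT, the exceptions being Pgam1 and Sord. Between the lines it held for 35 of 37, all but Slc2a1 and Sord. These intervals are for single genes and are not adjusted for their number. The estimated difference itself was under 1.2-fold for 35, 32 and 33 of the 37 members in these comparisons.

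**Figure D1:**
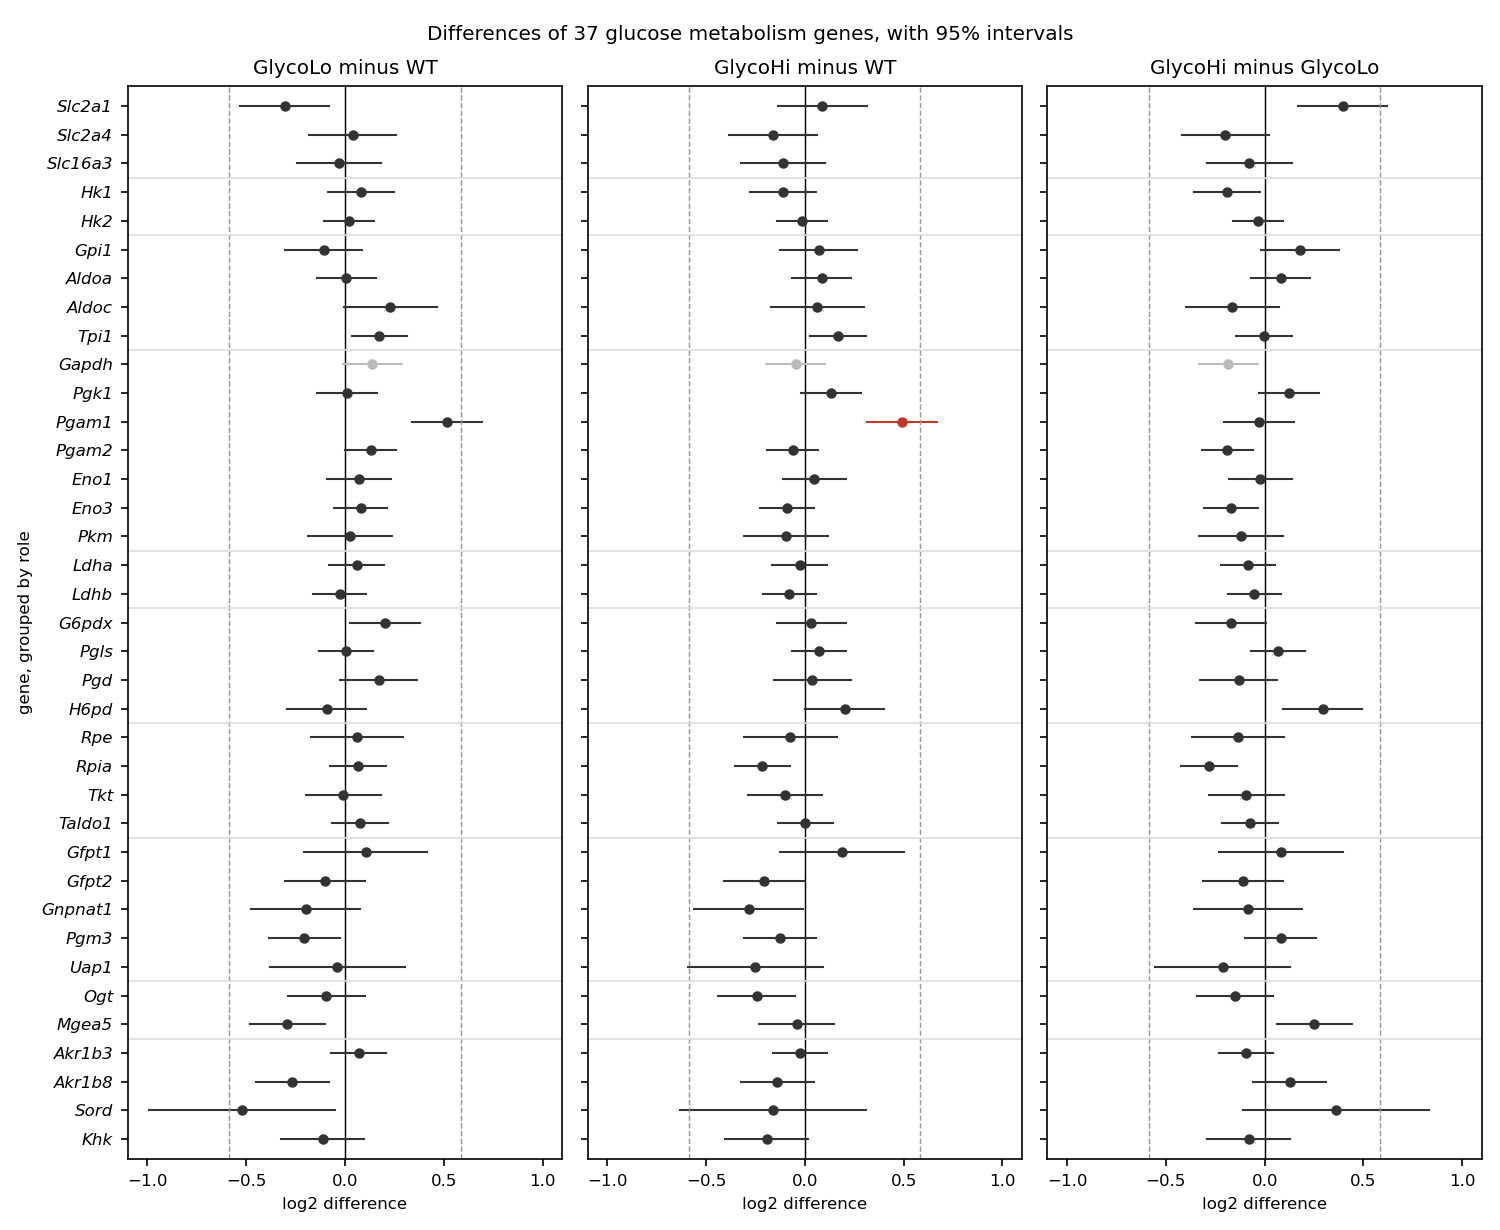
Difference in log2 signal of each of the 37 genes (points) with its 95% interval (lines) in 3 comparisons, grouped by role and separated by grey lines; dashed lines mark 1.5-fold. Red marks the call of Pgam1 in GlycoHi minus WT, and pale grey marks Gapdh, a control probe set; most intervals lie within the dashed lines and many cross 0.

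Pgam1, the widely expressed phosphoglycerate mutase that turns 3-phosphoglycerate into 2-phosphoglycerate, was the called member. It read 9.28, 9.28 and 9.06 in GlycoHi hearts and 9.12, 9.27 and 9.31 in GlycoLo hearts, against 8.69, 8.73 and 8.73 in WT hearts. Every heart of either line stood above every WT heart, and the WT hearts were the closest together. In GlycoHi hearts Pgam1 rose by 0.49 ± 0.08 (SE; 95% interval 0.31 to 0.67; limma adjusted p = 0.0108), which is 1.41-fold. Its difference in GlycoLo was of similar size, 0.52 ± 0.08 (95% interval 0.34 to 0.70), and was not called at an adjusted p = 0.0568. Before adjustment over all probe sets, the limma p was 5.42e-05 in GlycoLo and 8.54e-05 in GlycoHi. Between GlycoHi and GlycoLo the difference was -0.03, with a 95% interval from -0.20 to 0.15. The authors' deposited table gives this gene adjusted p-values of 0.0108 in GlycoHi against WT and 0.0569 in GlycoLo against WT. Without GlycoHi replicate 2 the call in GlycoHi was lost (adjusted p = 0.0525), and without GlycoHi replicate 3 the difference in GlycoLo was called (adjusted p = 0.0458).

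Pgam2 encodes the muscle isozyme of the same step. It read 12.50, 12.51 and 12.56 in GlycoHi hearts and 12.73, 12.69 and 12.72 in GlycoLo hearts, against 12.62, 12.58 and 12.56 in WT hearts. The GlycoLo hearts were the highest group and did not overlap the others, whereas the GlycoHi and WT hearts overlapped. The differences were 0.13 ± 0.06 in GlycoLo against WT, -0.06 ± 0.06 in GlycoHi against WT and -0.19 ± 0.06 in GlycoHi against GlycoLo (limma adjusted p = 0.173). The 95% interval in GlycoHi against WT ran from -0.19 to 0.07, below that of Pgam1, but the difference between the isozymes was not tested.

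The promoter windows of these paralogs are shown because Pgam1 was the called gene and Pgam2 makes the same enzyme in muscle. They run from 250 bases before to 50 bases after the annotated start (RefSeq, GRCm38.p6), on the plus strand at chr19:41911621-41911920 for Pgam1 and on the minus strand at chr11:5803747-5804046 for Pgam2. Capitals mark matches on either strand to 6 motifs: the E box CACGTG, the hypoxia response core ACGTG, which every E box contains, the C/EBP-ATF element TGATGNAAN, CCAAT, the GC box GGGCGG and the MEF2 consensus. The MEF2 consensus was added after the sequences were seen.
Pgam1: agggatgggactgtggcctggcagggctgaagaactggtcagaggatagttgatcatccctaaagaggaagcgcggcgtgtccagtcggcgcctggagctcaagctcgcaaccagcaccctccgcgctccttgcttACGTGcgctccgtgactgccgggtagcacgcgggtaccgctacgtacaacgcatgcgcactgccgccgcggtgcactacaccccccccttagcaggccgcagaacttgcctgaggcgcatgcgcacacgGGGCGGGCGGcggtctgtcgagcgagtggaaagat
Pgam2: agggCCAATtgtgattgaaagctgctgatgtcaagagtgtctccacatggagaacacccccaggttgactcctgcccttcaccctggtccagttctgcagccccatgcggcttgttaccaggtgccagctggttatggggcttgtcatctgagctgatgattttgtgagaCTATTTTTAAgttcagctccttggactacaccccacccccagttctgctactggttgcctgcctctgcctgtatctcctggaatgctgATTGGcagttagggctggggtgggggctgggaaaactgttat

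The Pgam1 window is 65% G and C and holds 1 hypoxia core at position -114, counted from the start as 0, and 2 overlapping GC boxes at 15 and 19. The Pgam2 window is 53.3% G and C and holds 2 CCAAT boxes, at -246 and 8, and 1 MEF2 match, at -80. MEF2 factors are muscle transcription factors. Among all 32851 windows of the table, 19.6% hold a hypoxia core, 35.7% a GC box, 37.4% a CCAAT box and 3.19% a MEF2 match. Of the members 33 have windows, 43 in number, of which 41.9% hold a hypoxia core, 69.8% a GC box, 46.5% a CCAAT box and 2.33% (that of Pgam2) a MEF2 match. An E box stands in 4.65% of members' windows and in 7.15% of all, and the C/EBP-ATF element in 0 of the 43 and in 3.95% of all. These matches describe the sequence. The arrays do not measure binding, and windows of 1 gene can overlap. G and C content was counted only for the windows of Pgam1 and Pgam2. The shares were not matched for it and do not test for an excess of a motif among members.

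**Figure D2:**
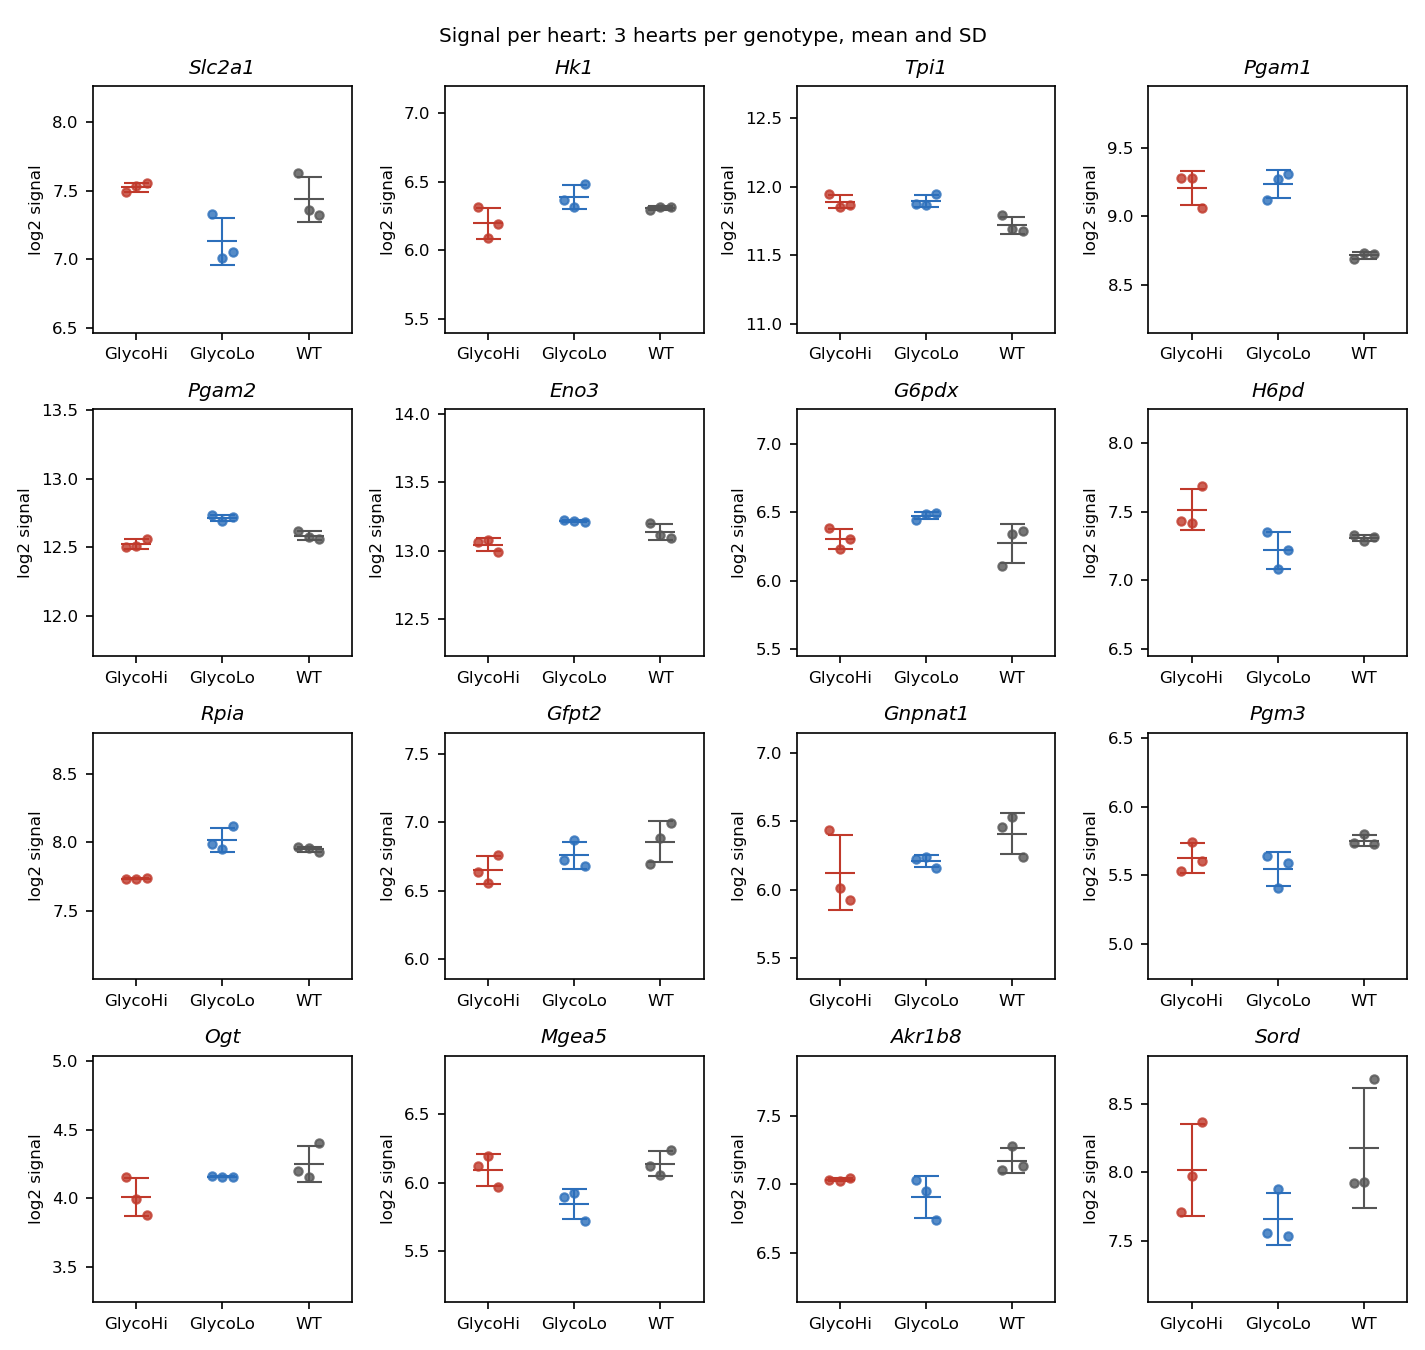
Log2 signal (vertical axis, the same span of 1.8 in every panel) in each heart of GlycoHi, GlycoLo and WT mice for the 16 tested genes with an unadjusted p under 0.05 in at least 1 comparison; points are hearts, bars the mean and SD of 3. Pgam1 is high in both lines, Rpia low in GlycoHi, and Sord spreads widely within each genotype.

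Glucose enters through Slc2a1 (GLUT1, the basal carrier) and Slc2a4 (GLUT4, the insulin-responsive carrier of muscle), and lactate leaves through carriers such as Slc16a3 (MCT4). Slc2a1 read 7.49, 7.53 and 7.55 in GlycoHi hearts and 7.33, 7.01 and 7.06 in GlycoLo hearts, against 7.63, 7.36 and 7.32 in WT hearts. The GlycoHi hearts lay above all GlycoLo hearts and within the WT range, and 1 GlycoLo heart reached the WT range. The difference between the lines was 0.39 ± 0.10 (1.31-fold; 95% interval 0.17 to 0.62), the largest among the members in that comparison, and was not called (limma adjusted p = 0.0996). Against WT it was -0.31 ± 0.10 in GlycoLo (adjusted p = 0.364) and 0.09 ± 0.10 in GlycoHi (adjusted p = 0.760). Slc2a4 differed by 0.04 ± 0.10 in GlycoLo and by -0.16 ± 0.10 in GlycoHi, where replicates 2 and 3, at 9.09 and 9.19, stood below every other heart and replicate 1, at 9.52, stood with the GlycoLo and WT hearts. Slc16a3 was dim, at 3.42 in GlycoHi, 3.50 in GlycoLo and 3.53 in WT hearts.

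The hexokinases, which trap glucose as glucose 6-phosphate, were close to level. Hk2, the muscle and heart hexokinase, averaged 11.04 ± 0.02 in GlycoHi and 11.08 ± 0.03 in GlycoLo hearts, against 11.06 ± 0.02 in WT hearts (SD, n = 3). Its 95% interval ran from -0.14 to 0.11 in GlycoHi against WT and from -0.11 to 0.15 in GlycoLo against WT. Hk1, the housekeeping isozyme, differed by -0.11 ± 0.08 in GlycoHi and by 0.08 ± 0.08 in GlycoLo, and by -0.19 ± 0.08 between the lines (adjusted p = 0.305).

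From hexose to triose, Gpi1 (phosphoglucose isomerase), Aldoa (the muscle aldolase), Aldoc (the brain aldolase) and Tpi1 (triose phosphate isomerase) were not called in any of the 3 comparisons. Tpi1 read 11.95, 11.86 and 11.87 in GlycoHi hearts and 11.88, 11.86 and 11.94 in GlycoLo hearts, against 11.79, 11.69 and 11.68 in WT hearts. As with Pgam1, every heart of either line lay above the WT hearts, by much less: 0.17 ± 0.06 in GlycoHi (adjusted p = 0.244) and 0.17 ± 0.06 in GlycoLo (adjusted p = 0.417). Gpi1 differed from WT by 0.07 ± 0.09 in GlycoHi and by -0.11 ± 0.09 in GlycoLo. Aldoa stood at 13.10 in GlycoHi and at 13.02 in both GlycoLo and WT hearts, near the top of the scale. Aldoc was near the bottom of it, and a single heart, GlycoLo replicate 1 at 2.99, stood apart from the other 8, which read 2.45 to 2.65.

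From triose to pyruvate, Gapdh (glyceraldehyde phosphate dehydrogenase), Pgk1 (phosphoglycerate kinase), the enolases Eno1 (widely expressed) and Eno3 (muscle) and Pkm (pyruvate kinase) differed by at most 0.14 from WT in either line. Gapdh read 13.33, 13.15 and 13.23 in GlycoHi hearts and 13.41, 13.39 and 13.46 in GlycoLo hearts, against 13.29, 13.33 and 13.23 in WT hearts. The GlycoLo hearts were the highest, at 0.14 ± 0.07 over WT (adjusted p = 0.562 in the fit that kept the controls), and GlycoHi stood at -0.05 ± 0.07. Between GlycoHi and GlycoLo the difference of this gene, often taken as a loading control, was -0.18 ± 0.07 (95% interval -0.33 to -0.03; adjusted p = 0.269).

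Eno3 read 13.06, 13.08 and 12.99 in GlycoHi hearts and 13.22, 13.22 and 13.20 in GlycoLo hearts, against 13.20, 13.11 and 13.10 in WT hearts. All GlycoHi hearts lay below the WT hearts and all GlycoLo hearts above them, the closest GlycoLo and WT hearts both rounding to 13.20. The difference between the lines, -0.17 ± 0.06, was not called (limma adjusted p = 0.257). Of 8 skeletal muscle markers 6 were lower in GlycoHi than in GlycoLo hearts, 5 of them with no overlap. Of all probe sets, 16.8% did not overlap in this comparison, in either direction. Tnni2 fell by 0.48 ± 0.09 (limma adjusted p = 0.0199). Acta1, the skeletal actin and the brightest of the 8, rose instead by 0.65 ± 0.12 (adjusted p = 0.0252). Their summed signal, which Acta1 carries, was 12.29 to 12.84 in GlycoHi and 11.89 to 12.01 in GlycoLo hearts, against 12.07 to 12.28 in WT hearts. Since 6 of the 8 markers were lower in GlycoHi, this sum follows Acta1 and is not a measure of skeletal muscle cells. The part of skeletal muscle cells in the values of Eno3 and Pgam2 was not tested. Eno1 differed by 0.05 ± 0.07 in GlycoHi and by 0.07 ± 0.07 in GlycoLo. Pgk1 stood at 0.13 ± 0.07 in GlycoHi and 0.01 ± 0.07 in GlycoLo, and Pkm at -0.09 ± 0.10 and 0.03 ± 0.10 in the same order.

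Lactate dehydrogenase is built from the Ldha (muscle) and Ldhb (heart) subunits. Ldhb averaged 12.79 ± 0.01 in GlycoHi and 12.84 ± 0.04 in GlycoLo hearts, against 12.87 ± 0.06 in WT hearts (SD, n = 3). Ldha averaged 11.81 ± 0.03 in GlycoHi and 11.90 ± 0.04 in GlycoLo hearts, against 11.84 ± 0.06 in WT hearts. The widest 95% interval bound of either subunit against WT was -0.21, that of Ldhb in GlycoHi.

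**Figure D3:**
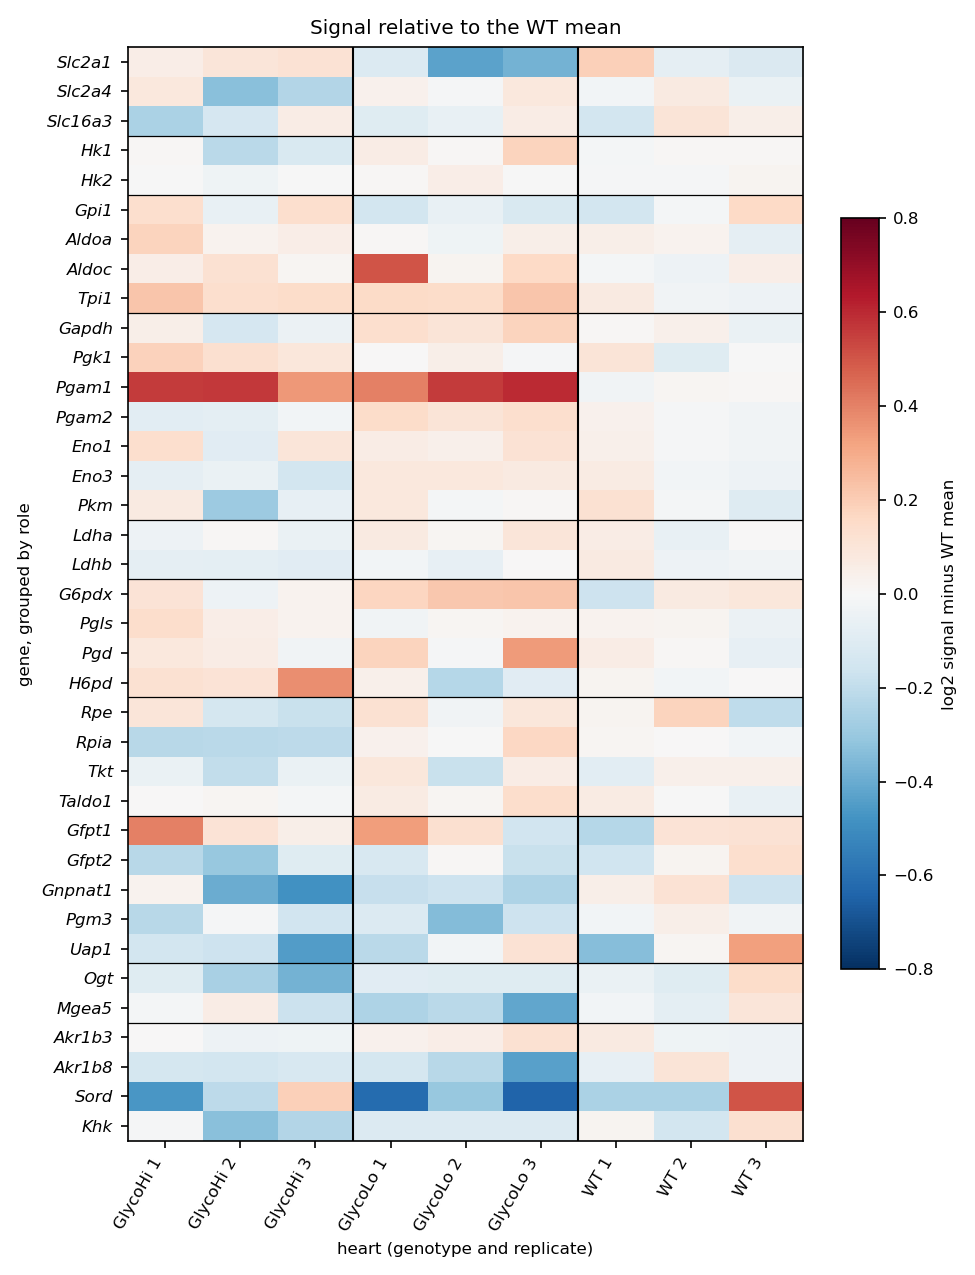
Log2 signal of each of the 37 genes (rows, grouped by role) in each of the 9 hearts (columns) minus the mean of the WT hearts, on a colour scale from -0.8 (blue) to 0.8 (red). Of the 222 values of GlycoHi and GlycoLo hearts, 86.5% lie within 0.25 of the WT mean; Pgam1 is red in all 6 of these hearts, and Sord in GlycoLo replicate 3 is the lowest at -0.64.

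The oxidative pentose phosphate enzymes yield NADPH. G6pdx (the cytosolic glucose 6-phosphate dehydrogenase), Pgls (the lactonase), Pgd (6-phosphogluconate dehydrogenase) and H6pd (the hexose 6-phosphate dehydrogenase of the endoplasmic reticulum) were not called. H6pd read 7.43, 7.42 and 7.69 in GlycoHi hearts and 7.35, 7.08 and 7.22 in GlycoLo hearts, against 7.33, 7.29 and 7.31 in WT hearts. GlycoHi hearts exceeded every heart of the other groups, by 0.20 ± 0.09 over WT and 0.29 ± 0.09 over GlycoLo (adjusted p = 0.339 and 0.176). Without GlycoHi replicate 3 the difference from WT was 0.12, against 0.20 with it. The GlycoLo hearts were instead the highest for G6pdx, with 6.31 in GlycoHi and 6.48 in GlycoLo hearts, against 6.27 in WT hearts. That difference was 0.20 ± 0.08 in GlycoLo against WT (adjusted p = 0.458) and 0.12 without WT replicate 1. Pgls and Pgd differed from WT by 0.07 and 0.04 in GlycoHi, and by 0.01 and 0.17 in GlycoLo.

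The non-oxidative enzymes interconvert pentose and hexose phosphates. Rpia, the isomerase that makes ribose 5-phosphate, read 7.73, 7.74 and 7.74 in GlycoHi hearts and 7.99, 7.95 and 8.12 in GlycoLo hearts, against 7.97, 7.96 and 7.93 in WT hearts. The GlycoHi hearts were tightly grouped below every other heart. The difference was -0.28 ± 0.06 from GlycoLo (0.82-fold; 95% interval -0.42 to -0.14; limma adjusted p = 0.0581) and -0.22 ± 0.06 from WT (0.86-fold; adjusted p = 0.133). Rpe (the epimerase), Tkt (transketolase) and Taldo1 (transaldolase) lay between -0.10 and 0.00 from WT in GlycoHi and between -0.01 and 0.08 in GlycoLo.

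Of the 5 hexosamine genes none was called, and 4 of 5 had a difference below 0 from WT in each line, with a median of -0.21 in GlycoHi and -0.10 in GlycoLo. Gfpt1 and Gfpt2 encode the rate-limiting amidotransferases that turn fructose 6-phosphate into glucosamine 6-phosphate, Gnpnat1 the acetyltransferase, Pgm3 the mutase and Uap1 the enzyme that forms UDP-GlcNAc. Gfpt2 differed by -0.21 ± 0.09 in GlycoHi and -0.10 ± 0.09 in GlycoLo, whereas Gfpt1, a dim probe set at 4.16 in GlycoHi, 4.08 in GlycoLo and 3.97 in WT hearts, differed by 0.19 ± 0.14 and 0.10 ± 0.14. Gnpnat1 read 6.44, 6.01 and 5.93 in GlycoHi hearts and 6.23, 6.24 and 6.16 in GlycoLo hearts, against 6.46, 6.53 and 6.24 in WT hearts. GlycoHi replicate 1 stood with the WT hearts, and the difference of -0.28 ± 0.12 had an adjusted p = 0.326. Pgm3 differed by -0.13 ± 0.08 in GlycoHi and by -0.21 ± 0.08 in GlycoLo (adjusted p = 0.533 and 0.459), and Uap1, also dim, by -0.25 ± 0.15 and -0.04 ± 0.15.

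O-GlcNAc is added to proteins by Ogt and removed by the enzyme of Mgea5. Mgea5 read 6.13, 6.20 and 5.97 in GlycoHi hearts and 5.89, 5.92 and 5.72 in GlycoLo hearts, against 6.12, 6.06 and 6.24 in WT hearts. All GlycoLo hearts were below the others, at -0.29 ± 0.09 from WT (adjusted p = 0.294), and GlycoHi stood 0.25 ± 0.09 above GlycoLo (adjusted p = 0.229). Ogt, a dim probe set, differed by -0.24 ± 0.09 in GlycoHi (adjusted p = 0.218) and by -0.09 ± 0.09 in GlycoLo.

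In the polyol pathway Akr1b3, the mouse aldose reductase, makes sorbitol and Sord oxidises it to fructose, which Khk phosphorylates. Sord was the most variable member: it read 7.71, 7.97 and 8.37 in GlycoHi hearts and 7.56, 7.88 and 7.53 in GlycoLo hearts, against 7.92, 7.93 and 8.68 in WT hearts. The GlycoLo hearts lay below the WT hearts, and the GlycoHi hearts spanned both. Its difference in GlycoLo, -0.52 ± 0.21 (95% interval -0.99 to -0.05; adjusted p = 0.478), became -0.27 without WT replicate 3. Adipoq, the adipocyte hormone, was also highest in that heart, at 7.78, but read 4.60 in GlycoHi replicate 3, the next highest for Sord; its part in these values was not tested.

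Akr1b3 was steady, at 10.67 ± 0.02 in GlycoHi and 10.77 ± 0.05 in GlycoLo hearts, against 10.70 ± 0.06 in WT hearts (SD, n = 3). Akr1b8, an aldo-keto reductase of the same family, read 7.03, 7.03 and 7.04 in GlycoHi hearts and 7.03, 6.95 and 6.74 in GlycoLo hearts, against 7.11, 7.28 and 7.14 in WT hearts. Both lines lay below WT with no overlap, at -0.14 ± 0.08 in GlycoHi (adjusted p = 0.494) and -0.27 ± 0.08 in GlycoLo (adjusted p = 0.334). Khk differed by -0.19 ± 0.10 in GlycoHi and by -0.11 ± 0.10 in GlycoLo.

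A list of 44 other genes of the same pathways held 5 calls in GlycoHi against WT (2 rises and 3 falls; 2.08% of all probe sets were called), 0 in GlycoLo against WT (0.0844%) and 2 between the lines (1 rise and 1 fall in GlycoHi; 1.71%). At an unadjusted p under 0.05 in the limma fit, 5 of the 44 were higher and 7 lower in GlycoHi against WT, where 14.5% of all probe sets passed. In GlycoLo against WT 6 were higher and 6 lower (9.48%), and between the lines 5 were higher and 6 lower in GlycoHi (12.9%). The list was chosen with earlier results of these data known, and the background was not matched for signal. These counts therefore do not test for an excess. Prps2, which makes phosphoribosyl pyrophosphate from ribose 5-phosphate, the product of Rpia, read 5.84, 5.94 and 5.61 in GlycoHi hearts and 6.58, 6.39 and 6.39 in GlycoLo hearts, against 6.39, 6.54 and 6.79 in WT hearts. It fell in GlycoHi by 0.78 ± 0.12 against WT (adjusted p = 0.00616) and by 0.66 ± 0.12 against GlycoLo (adjusted p = 0.0179), and Prps1, its paralog, stood at 0.17 against WT. The call between the lines was lost without GlycoHi replicate 1 or 3 and without any 1 GlycoLo heart (the adjusted p reaching 0.0762).

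Slc16a7, the monocarboxylate carrier MCT2, read 6.34, 6.41 and 6.42 in GlycoHi hearts and 6.03, 5.87 and 5.97 in GlycoLo hearts, against 5.85, 5.48 and 5.54 in WT hearts. The 3 groups did not overlap, with GlycoHi the highest. It rose in GlycoHi by 0.77 ± 0.09 against WT (adjusted p = 0.00199) and by 0.43 ± 0.09 against GlycoLo (adjusted p = 0.0482). The call between the lines was again lost without any 1 GlycoHi or GlycoLo heart or WT replicate 2 or 3 (the adjusted p reaching 0.157), with the replicate number as a block (adjusted p = 0.0614) and with a common median (0.0551).

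Galk1 (galactokinase) rose by 0.36 ± 0.07 in GlycoHi against WT (adjusted p = 0.0288), while Ldhd (the D-lactate dehydrogenase) fell by 0.43 ± 0.09 (adjusted p = 0.0336) and Me1 (the cytosolic malic enzyme, a source of NADPH) fell by 0.31 ± 0.07 (adjusted p = 0.0430). Galk1 lost its call, with an adjusted p up to 0.116, when GlycoHi replicate 1 or 3 or WT replicate 2 or 3 was left out, and in a fit of the 6 arrays compared (0.0759). That of Ldhd was lost without any 1 WT or GlycoHi heart or GlycoLo replicate 1 (up to 0.125) and with the replicate number as a block (0.0581). That of Me1 was lost without any 1 WT or GlycoLo heart or GlycoHi replicate 2 or 3 (up to 0.139), with the block (0.0691), in a fit of the 6 arrays compared and with a common median (0.0621), and was kept in 7 of 18 alternatives. The phosphofructokinase 1 genes were not called: Pfkm, the muscle subunit, differed by -0.20 ± 0.07 in GlycoHi against WT (adjusted p = 0.183) and by 0.02 ± 0.07 in GlycoLo, Pfkl by 0.03 ± 0.08 and -0.16 ± 0.08, and Pfkp by -0.23 ± 0.14 and -0.14 ± 0.14.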

How the data were processed

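RNA of 9 whole hearts was hybridised as biotin-labelled cRNA to Affymetrix mouse genome arrays. The authors deposited log2 values, and the submitters' processing notes name RMA; its settings are not given in the sources here. The authors' deposited table, which adds gene symbols (1 probe set per symbol), also holds their own log2 differences, p-values and adjusted p-values, and the same notes name limma. Its values differed from the value table by at most 8.9e-16. Groups followed the sample titles, and no label says that equal replicate numbers share a litter or batch.

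One limma 3.58.1 model (R 4.3.3) with genotype was fitted to all 9 arrays and 45037 non-control probe sets, moderated by empirical Bayes (6 residual and 4.66 prior degrees of freedom) and adjusted by Benjamini-Hochberg. The script was tested on simulated data. Errors after differences are SE, those after levels SD (n = 3); the number of arrays limits the precision. An exact permutation test of 3 against 3 hearts cannot go below p = 0.1. The members and lists were chosen with earlier results of these data known. All 37 members are described; of the other genes, those called in any comparison and the 3 Pfk genes are named, Prps1 being added after its values were seen. Values by heart were printed also for members chosen after their values were seen. Probe sets of 6 members (Aldoa, Pgk1, Eno1, Pgd, Tkt and Sord) carry the _x_at suffix, whose probes can match related sequences. Alternatives were a replicate block, the 6 arrays compared, no dim probe sets, cyclic loess, a common median, an offset of 50 on the linear scale, a trended and robust variance, weighted arrays, a threshold of 0.1, each array left out and, chosen after seeing the data, control probe sets kept. Symbols are those of the authors' table, and 33 of 37 members matched the RefSeq promoter table. Python 3.11.15 with pandas 2.3.3 and matplotlib 3.10.9 made the figures.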

Additional observations from a re-analysis of the deposited data

Results flagged for a closer look

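For 3 members every GlycoHi heart lay on one side of the WT mean and every GlycoLo heart on the other. The share of all probe sets that meet this rule was not counted. The GlycoHi minus GlycoLo difference was 0.39 for Slc2a1, with GlycoHi hearts above the WT mean, though within the WT range, and GlycoLo hearts below it. It was -0.19 for Pgam2 and -0.17 for Eno3, both muscle isozymes, with GlycoHi below the WT mean and GlycoLo above it. The GlycoHi and WT hearts of Pgam2 overlapped. None of these differences was called by limma (adjusted p = 0.0996, 0.173 and 0.257). Under a trended and robust variance all 3 were called (adjusted p = 0.0338, 0.00241 and 0.00952).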

How the results depend on the processing

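In GlycoHi against WT, where 1 member was called, 2 were called without dim probe sets, with an offset of 50 and with a trended and robust variance, and 0 to 1 when 1 heart was left out (0 without GlycoHi replicate 2). The share of all probe sets called, 2.08% at first, was 7.46%, 3.60% and 4.16% in those 3 settings, and 1.11% without GlycoHi replicate 2. The added calls were Rpia without dim probe sets (adjusted p = 0.0482) and with the offset (0.0291), and Tpi1 with the trended variance (0.0298). In GlycoLo against WT, where limma called 0 members, 1 was called without dim probe sets, with a common median, the offset, the trended variance or a threshold of 0.1, and 0 to 1 when 1 heart was left out. Pgam1 was that member each time, with an adjusted p from 0.00332 to 0.220 over 18 alternatives; the share of all probe sets, 0.0844% at first, was 0.675%, 0.107%, 0.298%, 0.568% and 0.213% in these settings. Between GlycoHi and GlycoLo, where 0 were called, 2 were called without dim probe sets, 1 with cyclic loess, 3 with the offset, 4 with the trended variance and 2 at a threshold of 0.1, while the share of all probe sets, 1.71% at first, was 5.69%, 1.88%, 2.82%, 3.43% and 2.83%. Rpia was among the members called in each of these settings (adjusted p from 0.0117 to 0.180 over 18 alternatives) and Slc2a1 was called without dim probe sets and with the trended variance (0.0338 to 0.280). Leaving out 1 heart gave 0 calls between the lines each time. The cause of these shifts was not tested. Without the dim probe sets, fewer enter both the fit and the adjustment, and the part of either was not tested. The members' median differences moved by over 1.5 times in some settings. They ran from -0.06 to -0.02 in GlycoHi against WT, 0.01 to 0.04 in GlycoLo against WT and -0.08 to -0.04 between the lines. No called value changed sign; among members' differences not called, 45 of 1911 refitted ones did, the largest being Sord in GlycoHi against WT (-0.16, and 0.09 without WT replicate 3). The rise of Pgam1 in GlycoHi lay between 0.45 and 0.56 over 18 alternatives (adjusted p 0.000689 to 0.0525).

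The replicate number shared by the groups was fitted as a block. With this replicate block the counts of called members stayed at 1 in GlycoHi against WT, 0 in GlycoLo against WT and 0 between the lines. Correlations of same-numbered hearts' deviations ran from -0.02 to 0.12, and those of differently numbered hearts from -0.11 to 0.06. Whether hearts with equal numbers share a litter, day or batch was not tested. Among the other genes, Ldhd and Me1 (GlycoHi against WT) and Slc16a7 (between the lines) lost their calls with the block. Leaving out 1 heart also moved many differences that were not called by over 1.5 times. Among them were the GlycoHi against WT differences of Slc2a4, H6pd, Gfpt1, Gnpnat1, Uap1, Sord, Khk and Pfkp. Those of Aldoc, G6pdx, Pgd, Sord and Pfkl in GlycoLo against WT moved likewise. The list is not complete: Hk1 in GlycoHi against WT, for example, went from -0.11 to -0.06 without GlycoHi replicate 2.

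Signal limits the 5 members below the array median (Slc16a3, Aldoc, Gfpt1, Uap1 and Ogt).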

Other observations

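The authors' table also lists 7 probe sets that name a member beside other symbols, which were left out of the counts. One that lists Gapdh with 9 further symbols averaged 13.52 in GlycoHi and 13.65 in GlycoLo hearts, against 13.54 in WT hearts, so GlycoLo was the highest group there as well. A second, dimmer one naming Gapdh averaged 6.90 in GlycoHi and 7.23 in GlycoLo hearts, against 7.17 in WT hearts. The GlycoHi minus GlycoLo differences of these probe sets were -0.14 ± 0.06 and -0.33 ± 0.09 (limma adjusted p = 0.395 and 0.119). One that names Hk1 with ribosomal protein symbols averaged 11.87 in GlycoHi and 11.77 in GlycoLo hearts, against 11.76 in WT hearts, with GlycoHi the highest group; in the probe set of Hk1 alone GlycoHi was the lowest (6.20 in GlycoHi and 6.39 in GlycoLo hearts, against 6.31 in WT hearts).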
